A study of Mus musculus with 16 samples.

Results

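The genes described here are 41 mouse genes of amino acid breakdown and creatine synthesis, taken as a fixed list by gene symbol from the deposited table of 46078 genes. Each of the 41 was found in 1 row, and all 41 passed the filter on low values (at least 1 TPM in at least 4 libraries), as 15014 genes did. They fall into 9 pathways of 2 to 9 genes: arginine and creatine, ornithine and proline, aromatic amino acids, branched-chain amino acids, propionate, glycine and serine, methylated glycines, D-amino acids, and lysine. Values are TPM, a level scaled for gene length so that each library sums to 1000000. Whole kidneys of C57BL/6 mice aged 20 weeks were sequenced as total RNA depleted of ribosomal RNA, in 16 libraries of 4 groups with 4 libraries each. Kidneys of all groups were taken after perfusion, 72 h after an intraperitoneal injection. The saline group (BL_vehicle) received 0.9% sodium chloride without preconditioning. The group called cisplatin alone (BL_cisplatin) received cisplatin, a platinum drug that injures kidney tubules, without preconditioning. The calorie restriction group (CR_cisplatin) was kept on restricted calories for 4 weeks and then received cisplatin. The hypoxia group (HP_cisplatin) was exposed to low oxygen for 2, 4 and 8 h on 3 successive days, the last exposure ending at least 1 h before cisplatin. No group was preconditioned and given saline, so a preconditioned group differs from saline by its preconditioning and by cisplatin together. The labels do not say that each library is a separate mouse, so the p-values measure the spread between these libraries, which may be technical.

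The kidney makes arginine from citrulline and uses it, together with glycine, for the opening step of creatine synthesis, whose product leaves for the liver. Its proximal tubule reabsorbs filtered amino acids and oxidizes many of them in mitochondria and peroxisomes, where branched-chain amino acids, proline, lysine and the D-amino acids are broken down. The enzymes below are given in the order of their pathways, and the level of each is a property of the whole kidney, in which fewer cells of a type and less RNA per cell cannot be told apart.

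Between 49152869 and 62569368 whole reads per library could be recovered from the TPM values, and all 41 members came out as whole reads in every library. Some members, such as Prodh and Bckdha, did so only at a gene length found by a search. Mitochondrially encoded genes held between 29.0% and 38.4% of a library's TPM. All members together summed to 3491 to 3896 TPM in saline, 842 to 1041 TPM after cisplatin alone, 3294 to 3780 TPM after calorie restriction, and 1068, 2985, 1984 and 3336 TPM in hypoxia libraries 1 to 4, which differed most among themselves. Hypoxia library 4 and calorie restriction library 4 were closer to each other than any other of the 120 pairs of libraries, pairs within a group included. The measure was the median over genes of the squared difference over its counting variance, scaled by the median under counting noise alone. This median ratio was 1.81 for the pair, against 3.33 for the next closest pair, cisplatin alone 2 and 3. Adipocyte markers of hypoxia 4 and calorie restriction 4 were alike too (Adipoq at 14.2 and 14.9 TPM, Plin1 at 8.67 and 8.87 TPM). Whether these 2 libraries come from separate kidneys was not tested. The median ratio of hypoxia 4 to hypoxia 1, 2 and 3 was 68.1, 24.6 and 38.8, where those 3 differed among themselves by 10.4 to 31.9. To calorie restriction 1, 2 and 3 it was 3.92, 5.32 and 5.41, and to the saline libraries 5.23 to 9.30. If library 4 did not belong to the hypoxia group, that group would hold 3 libraries, so its main results are also given without it. The 4 adipocyte markers summed to 0.165 to 20.8 TPM in saline, 15.1 to 81.9 TPM after cisplatin alone, 0.676 to 42.1 TPM after calorie restriction and 13.9 to 58.5 TPM after hypoxia. The highest sum of each group was that of saline 3, cisplatin 4, calorie restriction 4 and hypoxia 2. In cisplatin libraries 1 to 3 nearly all of the sum was Cidec (14.4, 16.4 and 22.0 TPM), with Adipoq at 0.236, 0.135 and 0.151 TPM. Hypoxia libraries 1 and 3 were alike in this, with Cidec at 13.5 and 17.3 TPM and Adipoq at 0.0918 and 1.61 TPM. The titles open with a code whose meaning is not stated. One code covers the 4 libraries of cisplatin alone and calorie restriction 1, and the other covers the remaining 11. No code holds libraries both of cisplatin alone and of saline or hypoxia, so a value within a code cannot be had there, and a term for the code rests on calorie restriction, with 1 library under the first code. Of 8 proximal tubule markers all 8 were lower after cisplatin alone than in saline (median log2 difference -3.56), and none was at 0. Their summed level was 3031 to 3810 TPM in saline, 128 to 209.5 TPM after cisplatin alone, 3045 to 3627 TPM after calorie restriction and 268 to 3136 TPM after hypoxia. The 5 markers of injured tubule summed to 2.20 to 4.39 TPM, 1026 to 1113 TPM, 1.98 to 6.86 TPM and 2.51 to 1236.5 TPM in the same order. Markers of thick ascending limb and distal convoluted tubule were lower too (4 of 4 each). Other kidney lists were mixed: collecting duct had 3 of 5 lower and 0 higher, and endothelium 2 of 4 lower and 1 higher. Podocyte had 1 of 4 lower and 1 higher, and fibroblast and pericyte 0 of 4 lower and 2 higher. The 7 leucocyte markers summed to 14.8 to 19.7 TPM in saline and 49.7 to 73.0 TPM after cisplatin alone, although of the 3 that could be tested 1 was higher and 2 were lower. The sum rose through Cd68, at 1.52 to 2.06 TPM in saline and 41.3 to 68.1 TPM after cisplatin alone. Adgre1 and Csf1r were the 2 that were lower, Csf1r at 10.4 to 14.5 TPM and 3.27 to 5.85 TPM. The part of these shifts in the members' values was not tested.

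Cisplatin alone was accompanied by lower levels of nearly the whole set. Of the 41 members, 39 were lower than in saline and 1, Arg2, was higher at an adjusted p below 0.05 (limma on log2(TPM + 1), adjusted over all genes tested). The exception was Gldc, the decarboxylating subunit of the glycine cleavage system. Over all 15014 genes 28.8% were lower and 38.0% were higher, whereas 95.1% of the members were lower. The median log2 difference was -1.72 for the members and 0.08 for all genes. With the title code as a term, 33 members were lower and 1 higher, with a median of -1.76. The libraries of the 2 groups did not overlap for 40 members, as was the case for 63.5% of all genes. Their summed share of the TPM of nuclear coding genes, a total without the mitochondrial genome, was 1.38% to 1.51% in saline and 0.410% to 0.470% after cisplatin alone. TPM was also rescaled without the mitochondrially encoded genes, the red blood cell genes and the 10 most abundant genes, 50 genes in all that held 67.0% to 72.0% of TPM, which also lessens the weight of the pseudocount. With the genes tested before (14974 of them), this gave 39 calls among the members, a share of calls over all genes that were higher of 67.3% in place of 56.9%, and a median over all genes of 0.24 in place of 0.08. With the filter applied after rescaling (18703 genes) these were 39, 68.7% and 0.25.

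**Figure D1:**
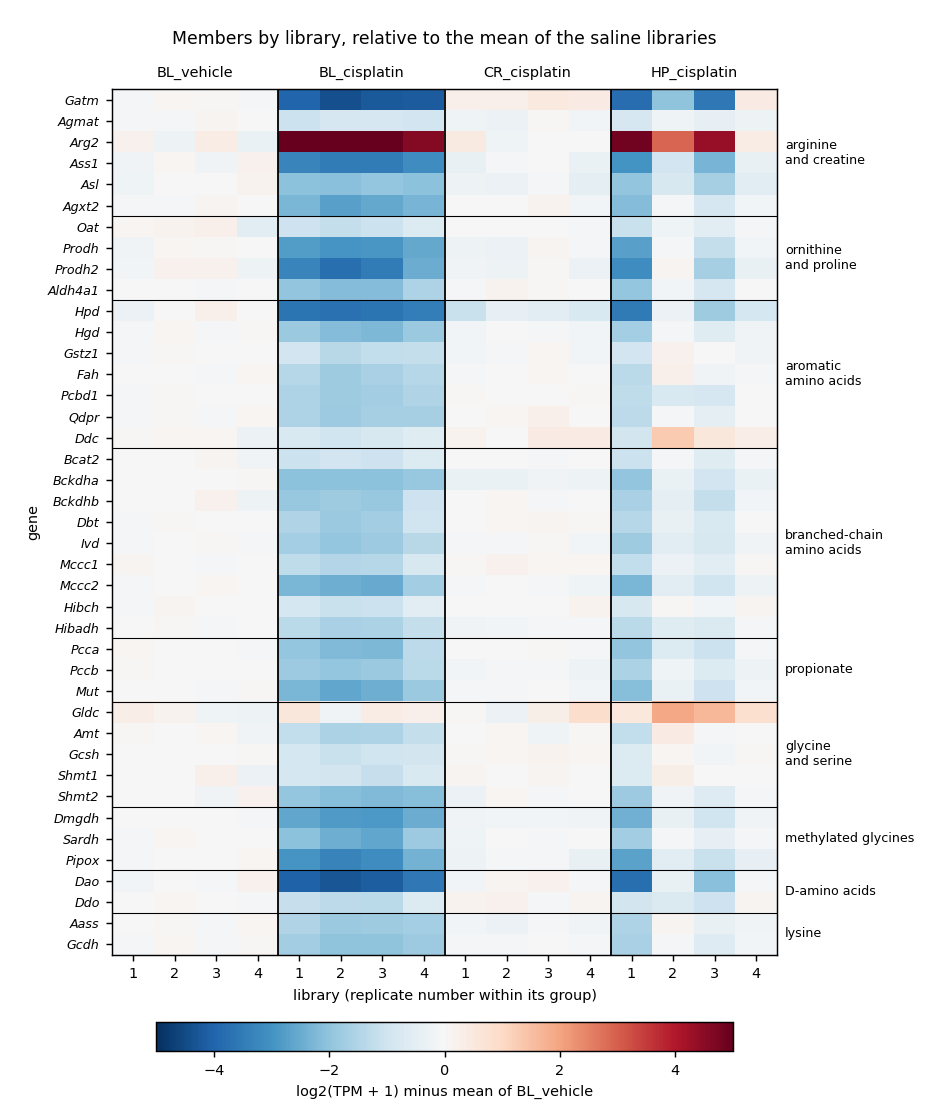
Each row is 1 of the 41 members, grouped by pathway, and each column is 1 of the 16 libraries; colour gives log2(TPM + 1) minus the mean of the saline libraries, with the colour scale ending at -5 and 5. The 4 columns of cisplatin alone are blue for all members except Arg2 and Gldc, the 4 columns of calorie restriction are pale, and the hypoxia columns run from the cisplatin pattern in library 1 to a pale column in library 4.

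The arginine and creatine pathway held the deepest fall on the log2(TPM + 1) scale, that of Gatm, and the only rise that passed the test. Gatm, the kidney enzyme that joins arginine and glycine in the opening step of creatine synthesis, lies on chromosome 2 (GRCm38, 122594467 to 122611303, minus strand). It was measured at 163, 184, 177 and 159 TPM in saline, at 9.85, 7.13, 8.45 and 8.51 TPM after cisplatin alone, at 201, 206, 237 and 224 TPM after calorie restriction and at 11.3, 42.0, 13.3 and 228 TPM in hypoxia libraries 1 to 4. Every library of cisplatin alone was far below every saline library, the calorie restriction libraries were all above saline, and hypoxia library 4 stood with calorie restriction while the other 3 were low. The mean of Gatm was 20.1-fold lower after cisplatin alone than in saline (8.49 ± 1.11 against 171 ± 11.7 TPM, mean ± SD, n = 4 each), a log2 difference of -4.18 ± 0.64 (SE, adjusted p = 9.09e-05). Gatm is described in full because of these values, since the rule for naming members would have passed it over.

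Ass1 and Asl convert citrulline to arginine. Ass1 was the most abundant member, at 869, 1058, 882 and 1155 TPM in saline, 99.1, 85.4, 87.2 and 113 TPM after cisplatin alone, 769, 941, 989.7 and 788 TPM after calorie restriction and 123, 508, 198 and 769.6 TPM after hypoxia. Its log2 difference between cisplatin alone and saline was -3.35 ± 0.41 (SE, adjusted p = 4.52e-05), or 10.3-fold lower by mean TPM. Asl, the lyase of the next step, went from 37.0, 43.2, 42.6 and 48.1 TPM in saline to 9.63, 9.18, 10.5 and 9.44 TPM after cisplatin alone (log2 difference -2.03 ± 0.24 SE, adjusted p = 4.18e-05). It was at 35.4, 34.8, 40.0 and 30.4 TPM after calorie restriction and at 10.2, 23.7, 12.7 and 29.5 TPM after hypoxia. In both genes the hypoxia libraries lay below all saline libraries, library 4 included.

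Arg2, the mitochondrial arginase that splits arginine into ornithine and urea, moved the opposite way. Its levels were 2.56, 1.62, 3.02 and 1.43 TPM in saline and 108, 105, 124 and 74.3 TPM after cisplatin alone, and the mean was 47.7-fold higher (log2 difference 5.05 ± 0.67 SE, adjusted p = 5.24e-05). After calorie restriction it was at 3.18, 1.68, 2.16 and 2.10 TPM, within or near the saline range, and after hypoxia at 86.8, 22.2, 61.5 and 2.96 TPM. The hypoxia order was thus the reverse of that of Gatm, with library 1 highest and library 4 at the saline level. Agxt2, a mitochondrial aminotransferase that also degrades dimethylarginine, and Agmat, annotated as agmatinase, were lower by log2 differences of -2.48 and -0.93. Agmat was the lowest expressed member, with only 4 to 15 reads per library after cisplatin alone.

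**Figure D2:**
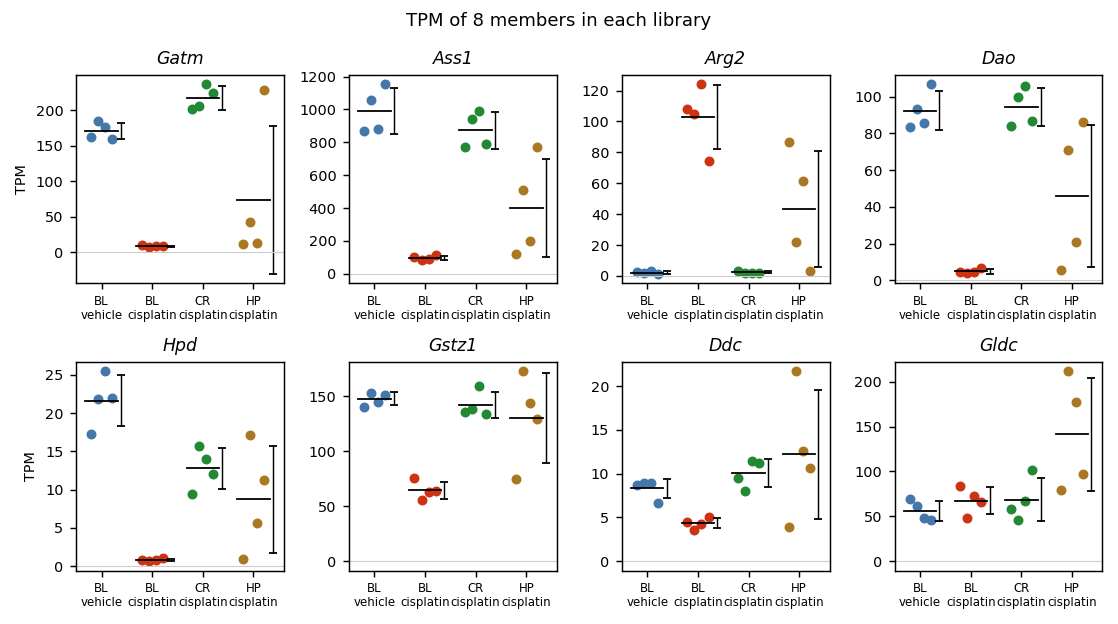
TPM of 8 members, with 1 point per library, a line at the group mean and a bar of 1 SD to its right (n = 4 libraries per group). Gatm, Ass1, Dao and Hpd are low in all 4 libraries of cisplatin alone and spread between the extremes in hypoxia, Arg2 shows the reverse, and Gldc is highest in hypoxia libraries 2 and 3.

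All 4 genes of ornithine and proline breakdown fell after cisplatin alone. Prodh oxidizes proline, Prodh2 oxidizes hydroxyproline, and both feed the dehydrogenase Aldh4a1, which also receives the product of the ornithine aminotransferase Oat. Prodh was at 114, 140.5, 136 and 131 TPM in saline and 17.8, 16.1, 16.6 and 21.2 TPM after cisplatin alone, a log2 difference of -2.80 ± 0.42 (SE, adjusted p = 8.05e-05). It was at 108, 106, 143 and 121 TPM after calorie restriction and at 18.7, 124, 56.7 and 117 TPM after hypoxia. Prodh2 was at 22.2, 28.9, 29.0 and 20.4 TPM and 1.65, 0.891, 1.30 and 3.63 TPM in the same 2 groups (log2 difference -3.26 ± 0.51 SE, adjusted p = 0.00011), and at 21.6, 20.5, 25.7 and 20.3 TPM after calorie restriction. Its hypoxia libraries held 2.03, 27.6, 7.07 and 18.9 TPM, so library 2 was among the saline values and library 1 among those of cisplatin alone. Aldh4a1 differed by -1.97. Oat had the smallest difference of the 4, -1.01, and its saline libraries were spread between 46.3 and 81.3 TPM.

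Tyrosine is degraded by Hpd, Hgd, Gstz1 and Fah in that order, while Pcbd1 and Qdpr recycle a biopterin cofactor and Ddc decarboxylates DOPA to dopamine. All 7 were lower after cisplatin alone, with log2 differences between -3.62 and -0.80 (median -1.64). Hpd fell most, from 17.3, 21.9, 25.5 and 22.0 TPM to 0.778, 0.703, 0.786 and 1.04 TPM, a 26.2-fold lower mean (log2 difference -3.62 ± 0.47 SE, adjusted p = 5.05e-05). Hpd was also 1 of 5 members whose calorie restriction libraries all stayed below the saline range, at 9.51, 15.7, 14.0 and 12.1 TPM. In hypoxia it was at 0.953, 17.1, 5.59 and 11.3 TPM.

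Gstz1, the isomerase further down the same chain, fell less: 141, 154, 145 and 152 TPM in saline against 75.3, 55.8, 62.7 and 63.5 TPM after cisplatin alone, a log2 difference of -1.20 ± 0.19 (SE, adjusted p = 0.000111). It stood at 135, 138, 159 and 134 TPM after calorie restriction and at 74.9, 173, 144 and 129 TPM after hypoxia, where library 2 was above the saline range, library 3 inside it and library 4 below it. Hgd and Fah, before and after Gstz1 in the chain, differed by -2.03 and -1.55, and the cofactor genes Pcbd1 and Qdpr by -1.64 and -1.67. Ddc was the only member whose 4 hypoxia libraries ran from below the mean of cisplatin alone to above that of saline. It was at 8.70, 8.95, 8.95 and 6.65 TPM in saline, 4.49, 3.61, 4.27 and 5.05 TPM after cisplatin alone, 9.51, 8.06, 11.5 and 11.3 TPM after calorie restriction and 3.87, 21.7, 12.5 and 10.6 TPM after hypoxia. Its fall after cisplatin alone was small (log2 difference -0.80 ± 0.32 SE, adjusted p = 0.0391), and the call was lost without any of the saline libraries 1 to 3 or cisplatin libraries 1 to 3, with limma adjusted p-values between 0.062 and 0.088. It was also lost with no filter, after rescaling with either set of genes, with the title code as a term and in a count fit of the recovered reads.

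Branched-chain amino acid breakdown starts with the mitochondrial aminotransferase Bcat2 and the branched-chain ketoacid dehydrogenase, of which Bckdha and Bckdhb form the decarboxylase and Dbt the core. Ivd, Mccc1 and Mccc2 continue the leucine branch, and Hibch and Hibadh the valine branch. All 9 were lower after cisplatin alone (median log2 difference -1.54), from -0.91 in Hibch to -2.24 in Mccc2. Bckdha, the most abundant of the 9, was at 164, 167, 163 and 173 TPM in saline and at 39.6, 39.6, 39.6 and 43.6 TPM after cisplatin alone (log2 difference -2.01 ± 0.26 SE, adjusted p = 4.95e-05). It was at 134, 131, 146 and 139 TPM after calorie restriction, below all saline libraries, and at 41.2, 131, 85.3 and 133 TPM after hypoxia. Mccc2, the beta subunit of methylcrotonyl-CoA carboxylase, was at 44.1, 44.2, 49.3 and 44.5 TPM in saline, 8.62, 7.62, 7.08 and 12.9 TPM after cisplatin alone, 43.3, 46.2, 43.6 and 39.2 TPM after calorie restriction and 8.64, 30.5, 22.2 and 37.7 TPM after hypoxia. Its difference between cisplatin alone and saline was -2.24 ± 0.31 (SE, adjusted p = 6.14e-05). Cisplatin library 4 was the highest of its group in all 9 genes, though below every saline library. That library also had the highest adipocyte markers, with Adipoq at 20.3 TPM against 0.135 to 0.236 TPM in the other 3, and the part of this in the values was not tested. Without it 39 members were lower and 1 higher, with a median over the members of -1.86.

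Propionyl-CoA from valine, isoleucine, methionine and threonine is carboxylated by Pcca and Pccb and isomerized by Mut. All 3 fell, Pcca by a log2 difference of -1.92. Pccb was at 77.4, 73.2, 74.2 and 74.1 TPM in saline, 20.7, 18.8, 19.8 and 28.9 TPM after cisplatin alone, 68.0, 68.8, 69.7 and 62.2 TPM after calorie restriction and 24.0, 64.3, 45.7 and 62.2 TPM after hypoxia. The log2 difference of Pccb was -1.74 ± 0.23 (SE, adjusted p = 5.24e-05). Mut, the vitamin B12-dependent mutase, was at 67.5, 67.1, 65.8 and 70.8 TPM in saline and 13.1, 10.3, 11.7 and 18.1 TPM after cisplatin alone, a log2 difference of -2.29 ± 0.31 (SE, adjusted p = 5.74e-05). It was at 63.6, 64.3, 68.7 and 62.3 TPM after calorie restriction and 14.8, 53.1, 32.1 and 61.8 TPM after hypoxia, so that the hypoxia libraries were all below the saline range and library 4 was the closest to it.

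The glycine cleavage system is made of Gldc, Amt, Gcsh and a lipoamide dehydrogenase shared with other complexes, and Shmt1 and Shmt2 interconvert glycine and serine in cytosol and mitochondria. Gldc, whose product decarboxylates glycine, parted from its partners. It was at 69.1, 62.0, 47.5 and 46.3 TPM in saline and at 83.3, 48.5, 72.8 and 65.6 TPM after cisplatin alone. These groups overlapped, and the log2 difference was 0.25 ± 0.30 (SE, adjusted p = 0.474). Amt and Gcsh, its partners in the same complex, fell by log2 differences of -1.39 and -0.97. After calorie restriction Gldc was at 58.5, 45.6, 67.2 and 102 TPM. After hypoxia it was at 79.9, 212, 177 and 97.1 TPM, above every saline library in all 4 and highest in libraries 2 and 3. Shmt2 showed the deepest fall of this pathway, from 85.4, 88.3, 76.9 and 101 TPM in saline to 22.4, 19.4, 18.1 and 19.4 TPM after cisplatin alone (log2 difference -2.09 ± 0.28 SE, adjusted p = 5.15e-05). Its levels were 70.9, 94.6, 82.2 and 87.8 TPM after calorie restriction and 24.2, 77.7, 55.4 and 82.6 TPM after hypoxia. Shmt1, the cytosolic form, fell by a log2 difference of -0.93.

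Dmgdh and Sardh demethylate dimethylglycine and sarcosine in mitochondria, and Pipox oxidizes sarcosine and pipecolate in peroxisomes. As a pathway these 3 had the lowest median after cisplatin alone (log2 difference -2.70). Pipox was at 119.7, 123, 125 and 135 TPM in saline, 15.3, 11.5, 13.7 and 23.4 TPM after cisplatin alone, 105, 116, 121 and 96.1 TPM after calorie restriction and 18.8, 86.3, 57.8 and 94.8 TPM after hypoxia. Its log2 difference between cisplatin alone and saline was -2.94 ± 0.37 (SE, adjusted p = 4.67e-05). Dmgdh and Sardh differed by -2.70 and -2.23, and no library of the 3 genes after cisplatin alone reached the saline range.

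The peroxisomal D-amino acid oxidases Dao and Ddo act on neutral D-amino acids and on D-aspartate. Dao was at 83.3, 93.3, 85.6 and 107 TPM in saline and 4.65, 3.73, 4.35 and 6.83 TPM after cisplatin alone, 18.9-fold lower by the mean (log2 difference -4.00 ± 0.57 SE, adjusted p = 6.59e-05). It was at 84.3, 99.9, 106 and 86.8 TPM after calorie restriction and 5.79, 71.1, 21.0 and 86.2 TPM after hypoxia. Ddo fell less, by a log2 difference of -1.12, from between 15.4 and 17.3 TPM in saline to between 5.90 and 9.68 TPM after cisplatin alone. Its hypoxia libraries held 8.24, 9.43, 7.55 and 18.3 TPM, so that libraries 1 to 3 were all inside the range of cisplatin alone and library 4 was above saline.

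Lysine is degraded through Aass, the bifunctional enzyme of the opening steps, and Gcdh, the glutaryl-CoA dehydrogenase. Aass was at 173, 182, 163 and 189.8 TPM in saline, 61.9, 47.6, 51.6 and 54.0 TPM after cisplatin alone, 160.2, 143, 167 and 154 TPM after calorie restriction and 59.7, 195, 136 and 155 TPM after hypoxia, with a log2 difference of -1.71 ± 0.25 (SE, adjusted p = 8.01e-05) between the first 2 groups. Gcdh went from 121, 139, 125 and 133 TPM to 37.8, 30.9, 31.6 and 36.3 TPM (log2 difference -1.89 ± 0.24 SE, adjusted p = 4.73e-05), and stood at 121, 125, 129.7 and 124 TPM after calorie restriction and 41.9, 121, 82.4 and 118 TPM after hypoxia. Hypoxia library 2 was above the saline range for Aass and inside it for Gcdh, and library 1 was inside the range of cisplatin alone for Aass and just above it for Gcdh.

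**Figure D3:**
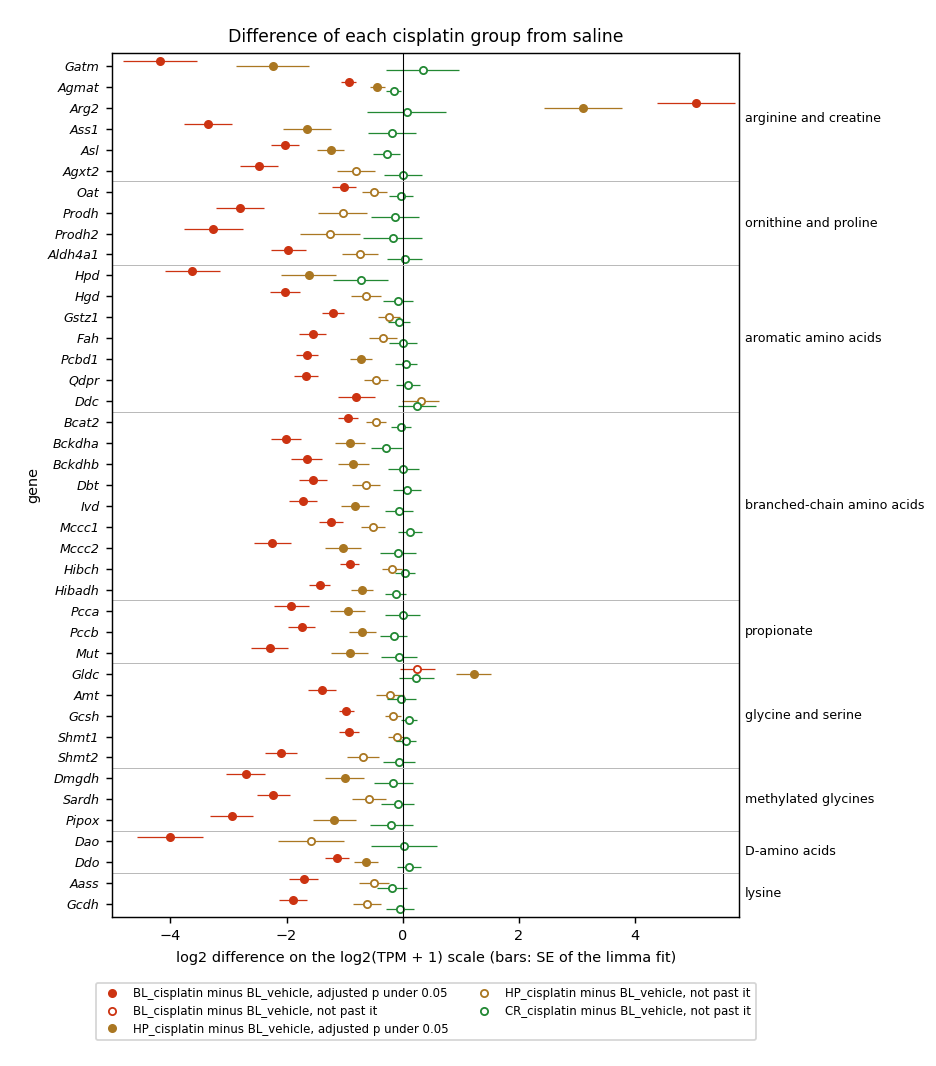
Log2 differences from saline on the log2(TPM + 1) scale for each member, with the SE of the limma fit as bars; filled points passed an adjusted p of 0.05 and open points did not. Cisplatin alone lies left of 0 for 39 members, calorie restriction lies between -0.72 and 0.34, and hypoxia lies between them for most members, with Gldc on the right at 1.22.

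The promoters of the set were read for 4 motifs of factors known in tubule or stress biology, since its members moved together. RefSeq windows (GRCm38.p6, 250 bases before to 50 after a start) were found for 37 of the 41 members, 46 windows in all, and none for Arg2, Asl, Dbt and Mut. Both strands were searched, and no 2 of the motifs shared a match in the windows printed here. The PPAR half-site motif AGGTCA was in windows of 14 members (34.8% of member windows and 16.3% of all 32851 windows of this length). The HNF4 core CAAAGTCCA was in windows of Agxt2 and Pipox (3 of 46 windows, or 6.52%, against 0.475%). Of these 3, 2 are overlapping windows of Agxt2 that hold the same match, so the share counts it more than once. Those windows of Agxt2 also hold the same AGGTCA match, which the share of that motif likewise counts more than once. The HNF1 half-site motif GTTAAT was in windows of Bckdhb, Pcbd1 and Prodh2 (6.52% against 7.10%). The ATF4-CEBP element TGATGNAAT was in no member window and in 0.965% of all windows. A gene can have several windows, and a match is a description of letters, not a site. The windows below, chosen after the matches were known, are those of Gatm (the deepest fall on the log2(TPM + 1) scale), Prodh2 (both GTTAAT and AGGTCA) and the HNF4 core genes Agxt2 and Pipox. For Gatm the match lies 156 bases before the start, and for Agxt2 and Pipox the HNF4 core begins 21 bases before and 15 bases after it. Each is shown 5′ to 3′ on the strand of its gene from 250 bases before to 30 after the start, with motif letters of either strand in capitals.
Gatm (chr2:122611248-122611527, minus strand): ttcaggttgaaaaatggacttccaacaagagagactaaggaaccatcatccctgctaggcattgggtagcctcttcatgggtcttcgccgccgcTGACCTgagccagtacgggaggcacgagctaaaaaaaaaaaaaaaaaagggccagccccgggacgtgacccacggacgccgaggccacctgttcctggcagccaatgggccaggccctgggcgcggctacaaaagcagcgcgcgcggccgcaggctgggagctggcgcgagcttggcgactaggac
Prodh2 (chr7:30493408-30493687, plus strand): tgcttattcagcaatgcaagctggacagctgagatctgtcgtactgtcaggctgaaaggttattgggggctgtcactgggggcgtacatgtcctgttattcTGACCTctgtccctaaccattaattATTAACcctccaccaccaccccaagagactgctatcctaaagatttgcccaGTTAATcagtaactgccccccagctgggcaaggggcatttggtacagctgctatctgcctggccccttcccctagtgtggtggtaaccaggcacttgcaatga
Agxt2 (chr15:10358283-10358562, plus strand): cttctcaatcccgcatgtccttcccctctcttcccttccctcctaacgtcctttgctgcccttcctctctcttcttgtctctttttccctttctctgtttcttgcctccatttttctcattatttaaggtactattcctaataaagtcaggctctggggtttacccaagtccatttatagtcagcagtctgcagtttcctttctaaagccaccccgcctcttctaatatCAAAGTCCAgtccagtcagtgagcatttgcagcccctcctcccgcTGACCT
Pipox (chr11:77893843-77894122, minus strand): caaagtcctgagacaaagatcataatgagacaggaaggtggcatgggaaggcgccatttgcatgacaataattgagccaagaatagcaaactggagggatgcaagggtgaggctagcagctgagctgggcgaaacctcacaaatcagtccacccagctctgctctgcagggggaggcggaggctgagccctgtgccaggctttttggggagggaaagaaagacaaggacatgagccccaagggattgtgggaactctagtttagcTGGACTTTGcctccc

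Calorie restriction before cisplatin went with levels near those of saline across the set. Against cisplatin alone, 39 members were higher and 1, Arg2, was lower, with Gldc as the exception (log2 difference -0.02 ± 0.30 SE, adjusted p = 0.962). Of all genes 29.8% were higher and 37.4% lower. The median log2 difference of the members was 1.69, against -0.08 for all genes, and libraries did not overlap for 40 members and for 64.8% of all genes. The largest rises were 4.53 for Gatm, 4.03 for Dao and 3.17 for Ass1, and Arg2 differed by -4.98. The rescaled values of the same genes gave 40 calls again, while 33.4% in place of 44.4% of calls over all genes were higher (32.0% with the filter applied after rescaling), and the median of all genes was -0.24 in place of -0.08. This comparison shares the libraries of cisplatin alone with the one before it, so it is not independent of it. Calorie restriction library 1, whose title carries the same code as cisplatin alone, was inside the range of cisplatin alone for 1 member only, Gldc. Its members summed to 3294 TPM, against 842 to 1041 TPM in the 4 libraries of cisplatin alone under that code.

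Set against saline, no member passed the test after calorie restriction (0 higher and 0 lower by limma, 0 at an unadjusted p under 0.05). Over all genes 0.0133% were higher and 0.0400% lower, 8 genes in all, with 610 at an unadjusted p under 0.05. Log2 differences of the members ran from -0.72 in Hpd to 0.34 in Gatm, with a median of -0.03. Their SE lay between 0.13 and 0.67, from 1 estimate of the spread over all 4 groups. Libraries did not overlap for 7 members (17.1%, against 9.16% of all genes). Gatm and Gcsh were the 2 above saline, and Hpd, Bckdha, Hibadh, Pccb and Dmgdh the 5 below it. Fitted by limma with these 2 groups alone, 10 members had an unadjusted p under 0.05 and 1, Bckdha, passed (log2 difference -0.28, adjusted p = 0.0483). The 610 genes above are of the main fit. The number of all genes under 0.05 in the fit of 2 groups is not given here, so the 10 cannot be set against it.

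Hypoxia before cisplatin gave a mixed group. Against cisplatin alone, 38 members were higher and 1, Arg2, lower, with a median log2 difference of 1.11, while 16.4% of all genes were higher and 13.1% lower (median -0.02). Libraries did not overlap for 13 members (15.5% of all genes). The rescaled values of the same genes gave 38 calls among the members. Over all genes they gave 1902 higher and 4007 lower, in place of 2455 and 1965 (1938 and 4513 with the filter applied after rescaling), with a median of -0.14 in place of -0.02. Without hypoxia library 4, 33 members were higher and 0 lower (median 0.99), with no overlap for 13 members and 18.5% of all genes. Without library 2, 27 were higher and 0 lower. No member passed, by limma, when only these 2 groups were fitted (37 at an unadjusted p under 0.05) or when the title code was a term (16). Against saline, 17 members were lower and 2, Arg2 and Gldc, higher (median -0.68), with 10.1% of all genes lower and 19.2% higher. Libraries did not overlap for 15 members (15.2% of all genes). Leaving out library 4 gave 31 lower and 2 higher (median -0.88), with no overlap for 25 members and 50.6% of all genes. Leaving out library 2 gave 26 and 2, and leaving out library 3 left 1 lower and 1 higher. Fits of these 2 groups alone, or of the libraries under the second code alone, called no member, with 18 and 23 at an unadjusted p under 0.05. Leaving out saline library 1, 2, 3 or 4 gave 11, 7, 8 and 9 calls, and testing without a filter on low values gave 9. Apart from the rescaled values, the shares of all genes called under these other fits are not given here. Their counts of members therefore cannot be set against such a share.

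The members with the smallest adjusted p against saline were the arginine genes and Gldc. On the log2 scale Asl differed by -1.24 ± 0.24 (SE, adjusted p = 0.00915) and Ass1 by -1.65 ± 0.41 (SE, adjusted p = 0.0161). Arg2 differed by 3.11 ± 0.67 (SE, adjusted p = 0.0118) and Gldc by 1.22 ± 0.30 (SE, adjusted p = 0.0162). Without hypoxia library 4 these 4 differences were -1.48 for Asl, -2.08 for Ass1, 4.03 for Arg2 and 1.36 for Gldc, and all 4 passed the test. Gldc was above saline in 4 of 4 hypoxia libraries, and its call was lost without library 3 (log2 difference 1.08, adjusted p = 0.060). That of Ass1 was lost likewise (-1.43, adjusted p = 0.060). The difference of Gldc between hypoxia and cisplatin alone was 0.97 ± 0.30 (SE, adjusted p = 0.0304), or 1.11 without library 4 (adjusted p = 0.0308), and its call was lost without hypoxia library 2 or 3 (adjusted p = 0.097 and 0.072), without cisplatin library 2, 3 or 4 (0.086, 0.057 and 0.051) and under 3 other settings. The call for Arg2 in that comparison (log2 difference -1.94 ± 0.67 SE, adjusted p = 0.0438) was likewise lost under most alternatives, among them leaving out any 1 library of saline, cisplatin alone or calorie restriction, or hypoxia library 2 or 4 (adjusted p between 0.053 and 0.098).

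Each hypoxia library was placed on a line from the mean of cisplatin alone (0) to the mean of saline (1), on the log2(TPM + 1) scale, for the 40 members other than Gldc, whose 2 means are too close. Library 1 was at the cisplatin end, with a median position of 0.08 (range -0.16 to 0.28), and lay inside the range of cisplatin alone for 28 of 41 members. Library 3 was in the middle, with a median of 0.56 (0.09 to 1.69). Libraries 2 and 4 were near saline by the median, at 0.89 and 0.94, but library 2 was scattered (0.35 to 2.62) and library 4 tight (0.72 to 1.41). The upper ends of libraries 2, 3 and 4 are all Ddc. A position is divided by the distance between the 2 means, which is smallest for Ddc (0.80 on the log2 scale). The next highest positions were 1.31 (Shmt1), 1.00 (Shmt1) and 1.16 (Hibch). That distance is small for Shmt1 and Hibch too (0.93 and 0.91). The calorie restriction libraries had medians between 0.95 and 1.00. Positions above 0.75 were found for 0, 30, 9 and 38 of the 40 members in libraries 1 to 4. Positions and ranges were not computed over all genes, so whether these counts are particular to the members was not tested. By the median ratio over genes with at least 20 recovered reads on average, hypoxia library 1 was closest to cisplatin library 1 (5.63). Hypoxia library 4 was closest to calorie restriction library 4 (1.81).

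At the low end of library 2 were Ddo (0.35), Arg2 (0.42), Gatm (0.52), Pcbd1 (0.53), Hibadh (0.58) and Asl (0.60). At its high end were Ddc (2.62), Shmt1 (1.31), Amt (1.28), Gstz1 (1.19), Fah (1.17), Gcsh (1.08) and Aass (1.08). In library 3 the lowest were Ddo (0.09), Arg2 (0.14), Gatm (0.14), Asl (0.18), Bckdhb (0.28) and Ass1 (0.31), and the highest Ddc (1.69), Shmt1 (1.00), Gstz1 (0.97) and Amt (0.96). Ddo, and Gatm, Arg2 and Asl of the arginine pathway, were thus at the low end of both libraries, and Ddc, Shmt1, Amt and Gstz1 at the high end. Agxt2 and Agmat of the arginine pathway were not at the low end (0.97 and 0.76 in library 2, 0.66 and 0.54 in library 3). The genes at both ends were picked out after the positions were known. The 8 proximal tubule markers summed to 268, 1723, 699 and 3136 TPM in hypoxia libraries 1 to 4, and 5 of the 8 ran in the order of the members' sum (1, 3, 2, 4); Cubn, Slc5a12 and Slc13a3 did not. The 5 markers of injured tubule summed to 1236.5, 109, 677 and 2.51 TPM, and 4 of the 5, all but Vcam1, ran in the reverse order. Their part in the members' values was not tested.

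**Figure D4:**
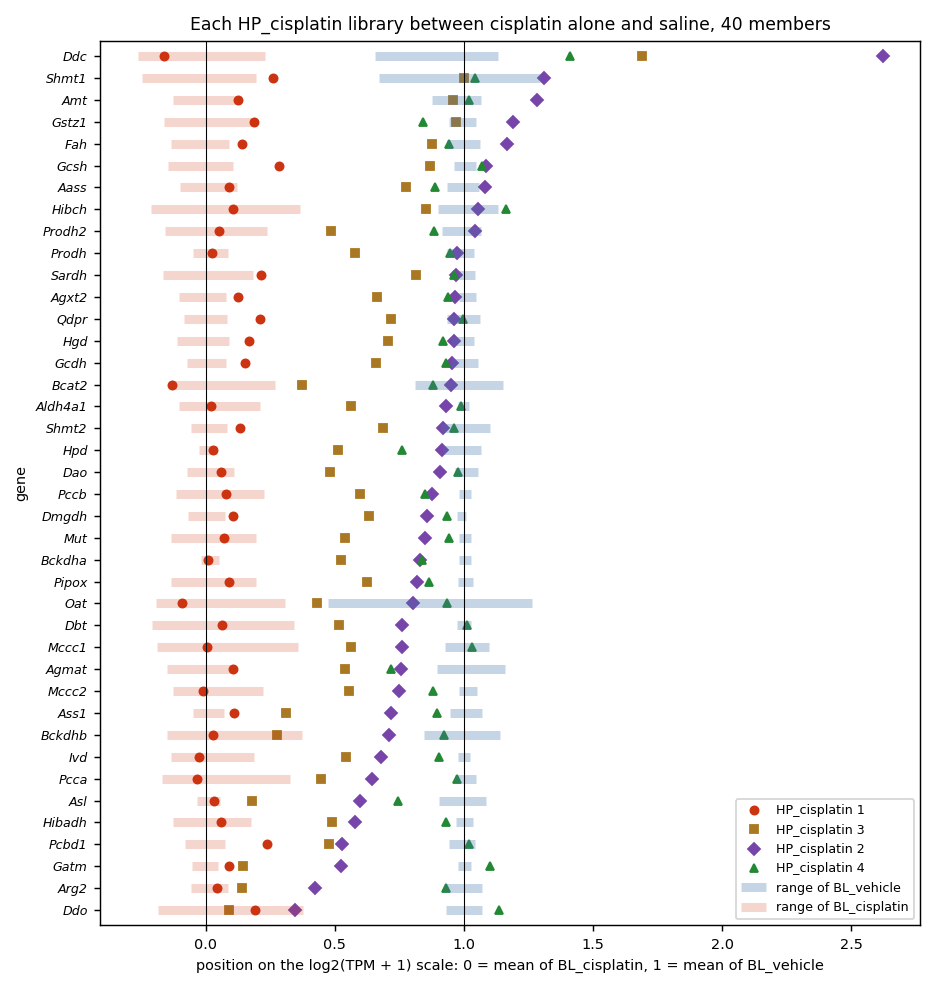
Position of each hypoxia library between cisplatin alone (0) and saline (1) for 40 members, ordered by library 2; bands give the range of the 4 libraries of each reference group. Library 1 stays near the left band and library 4 near the right band, library 3 lies between for most members, and library 2 runs from 0.35 for Ddo to 2.62 for Ddc.

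The 2 preconditionings were compared directly. Calorie restriction was higher than hypoxia for 12 members and lower for 2 (median log2 difference 0.63), where 9.24% of all genes were higher and 15.0% lower. Libraries did not overlap for 9 members (9.80% of all genes). The 12 were Gatm, Ass1 and Asl of the arginine pathway, Bckdhb, Dbt, Ivd, Mccc1, Mccc2 and Hibadh of branched-chain breakdown, and Pcbd1, Pcca and Ddo. Arg2 and Gldc were the 2 that were lower after calorie restriction. Gatm differed by 2.58 ± 0.64 (SE, adjusted p = 0.0275), Asl by 0.96 ± 0.24 (SE, adjusted p = 0.0275) and Arg2 by -3.04 ± 0.67 (SE, adjusted p = 0.0275). No glycine or serine gene other than Gldc passed, and neither did any of ornithine and proline, methylated glycines or lysine. The count depended on the libraries: it was 32 without hypoxia 4 (30 higher and 2 lower, median 0.81, no overlap for 20 members and 51.6% of all genes) and 26 without hypoxia 2, and 0 without hypoxia 1, hypoxia 3 or any 1 calorie restriction library. By limma it was also 0 when only these 2 groups were fitted (14 at an unadjusted p under 0.05), with the title code as a term (25), with the second code alone (17) and with no filter on low values (27). Leaving out saline 1, 2 or 3 or cisplatin 1 gave 8 each, and cisplatin 3 gave 9. The share of all genes called in each of these other fits is not given here, so their counts cannot be set against it.

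Other genes of these pathways, listed by pathway, were 91 in number, of which 90 were in the table and 76 were tested. After cisplatin alone 49 were lower and 15 higher than saline, with a median log2 difference of -0.84, where 28.8% of all genes were lower and 38.0% higher. By the rule for naming them, up to 2 per pathway are given. Haao of the kynurenine branch, in the aromatic list, went from 119 ± 5.74 to 12.7 ± 4.66 TPM (log2 difference -3.19). Aadat, which transaminates aminoadipate after Aass, went from 157 ± 9.84 to 6.01 ± 1.47 TPM (log2 difference -4.52), and Hykk, hydroxylysine kinase, differed by -2.61. Acat1 and Auh of branched-chain breakdown fell by 2.69 and 1.01 on the log2 scale. Abat, the GABA transaminase, and Aldh6a1, a semialdehyde dehydrogenase of valine breakdown, fell by 2.42 and 1.72. Glyat, which conjugates glycine, and Mthfd1 of folate metabolism fell by 1.64 and 1.45. Bhmt2, a homocysteine methyltransferase, and Aldh7a1, an aldehyde dehydrogenase of lysine breakdown, fell by 2.55 and 1.26, and Hao2, a peroxisomal hydroxyacid oxidase, and Dtd1 by 4.03 and 1.08.

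Some of the 15 higher genes belong to synthesis or polyamine breakdown. Smox, spermine oxidase, rose from 1.60 ± 0.0622 to 14.9 ± 2.09 TPM (log2 difference 2.60), while the creatine kinase Ckb fell by 2.60. Aldh18a1, which acts in the synthesis of proline from glutamate, rose by a log2 difference of 0.65 where the proline oxidases fell. Chosen after their values were seen, Psat1 and Phgdh of serine synthesis and Mthfd2 of folate metabolism differed by 2.23, 1.14 and 1.15. Gamt, the methyltransferase that completes creatine, differed by -1.98 and was chosen likewise. Of the 76 tested, 0 passed by limma in calorie restriction against saline, while 11 were higher and 19 lower in hypoxia against saline, where 19.2% of all genes were higher and 10.1% lower. Psat1 was at 6.77 ± 1.76 TPM in saline, 35.4 ± 7.94 TPM after cisplatin alone, 8.07 ± 1.71 TPM after calorie restriction and 9.72 to 31.8 TPM across the hypoxia libraries.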

How the data were processed

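Total RNA of whole mouse kidneys was measured in 16 libraries of 4 groups. The authors deposited TPM per gene for every library, and per the submitters' processing notes STAR 2.5, featureCounts and Subread 1.5 were used with the mm10 build; their settings and the annotation release are not given in the sources used here. TPM is relative to all RNA in a library, so a change in abundant RNA shifts every value.

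The 15014 genes that reached 1 TPM in 4 or more libraries were tested with limma 3.58.1 (R 4.3.3, trended and robust prior) on log2(TPM + 1), with all 16 libraries in 1 model by group. Tests were 2-sided and adjusted by Benjamini-Hochberg over all genes in each comparison at 0.05. A fold on this scale understates the change of low genes. Whole reads were recovered from TPM and a gene length for 99.9969% of the 32198 genes above 0, within 0.01 of a whole number in each library. For 24725 genes this was the exon length of GENCODE M21. For 7472 genes it was the shortest length found by a search to give whole reads, a weaker check that genes of few reads pass easily. The recovered reads gave the depths and an added count fit with voom.

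The members, pathways and lists were chosen with earlier results of these data known. Values in every library are given for the most abundant and the most changed member of each pathway, members called against their pathway's direction, the up to 4 with the smallest adjusted p in either preconditioned group against saline, and any whose hypoxia libraries span both reference means. Of other pathway genes, up to 2 per pathway with the smallest adjusted p in cisplatin alone against saline are named; some are not reported here. Alternatives were another pseudocount, filter, scaling, prior or set of groups, the title code, and leaving out each library.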

Additional observations from a re-analysis of the deposited data

Results flagged for a closer look

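In 6 of the 164 sets of 4 libraries examined (each member in each group) 1 library stood apart from the other 3, with a gap above Dixon's critical share of the whole range. Chance gives about 1 in 20 such sets. In saline library 3, Agxt2 was at 22.6 TPM against 20.0 to 20.3 TPM in the others, and Mccc2 at 49.3 TPM against 44.1 to 44.5 TPM. In saline library 4, Ddc was at 6.65 TPM against 8.70 to 8.95 TPM, and Dmgdh at 37.2 TPM against 39.6 to 39.7 TPM. In cisplatin library 4, Bckdha was at 43.6 TPM against 39.57 to 39.60 TPM, and Bckdhb at 9.32 TPM against 4.68 to 5.12 TPM.

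Calorie restriction and hypoxia differed, in a direct test of one against the other after the same drug, for 14 members. The log2 differences, calorie restriction minus hypoxia, were 2.58 for Gatm, 1.47 for Ass1, 0.96 for Asl and -3.04 for Arg2 in the arginine pathway. In branched-chain breakdown they were 0.86 for Bckdhb, 0.71 for Dbt, 0.75 for Ivd, 0.63 for Mccc1, 0.94 for Mccc2 and 0.57 for Hibadh. The others were 0.76 for Pcbd1, 0.94 for Pcca, 0.74 for Ddo and -0.99 for Gldc. Adjusted p-values by limma lay between 0.0275 and 0.0449, and no call held without hypoxia library 1 or 3, or without any 1 calorie restriction library.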

How the results depend on the processing

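No member changed sign among called values under any alternative. Between 34 and 40 members were called in cisplatin alone against saline, and 39 or 40 in calorie restriction against cisplatin alone. The counts of the other comparisons moved more. Of the alternatives, only the rescaled values have calls over all genes given above. Fitting only the groups compared gave 0 calls by limma in hypoxia against cisplatin alone (37 at an unadjusted p under 0.05), 0 in calorie restriction against hypoxia (14), 0 in hypoxia against saline (18) and 1 in calorie restriction against saline. With the title code as a term, 0 were called in hypoxia against cisplatin alone (16) and 0 in calorie restriction against hypoxia (25). With the second code alone, 0 were called in calorie restriction against hypoxia (17) and 0 in hypoxia against saline (23). With no filter the counts were 0 (27) and 9. Leaving out 1 library at a time gave 27 to 41 calls in hypoxia against cisplatin alone, 0 to 32 in calorie restriction against hypoxia and 2 to 33 in hypoxia against saline. The main fit shares 1 estimate of the spread over all 4 groups, which were not equally spread. For most members the SD was largest in hypoxia. That of Gatm was 104 TPM there, against 11.7, 1.11 and 16.5 TPM in saline, cisplatin alone and calorie restriction. Oat went the other way, with 15.0 TPM in hypoxia and 15.6 TPM in saline. The part of this in these changes was not tested, nor was any other cause. Of 2 alternatives chosen after seeing the data, the count fit with voom called 39, 40, 39, 14, 0 and 19 members in the 6 comparisons, and the rescaled values of the genes tested before called 39, 40, 38, 15, 0 and 21. No paired analysis was possible because the labels number no replicates. Depth limits Agmat most, with 4 to 15 reads per library after cisplatin alone.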

Other observations

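Genes of glutamate, aspartate and alanine metabolism, which are shared by many of these pathways, were mixed. Of 8 tested, 4 were higher and 1 lower after cisplatin alone than in saline (limma, median log2 difference 0.35), where 38.0% of all genes were higher and 28.8% lower. In hypoxia against saline 4 were higher and 1 lower as well (median 0.63), where 19.2% of all genes were higher and 10.1% lower. After calorie restriction 0 of the 8 passed against saline. Asns, asparagine synthetase, was at 1.02 ± 0.13 TPM in saline and 5.05 ± 0.93 TPM after cisplatin alone (mean ± SD, n = 4, log2 difference 1.57, limma adjusted p = 4.12e-05), and at 3.37 ± 1.18 TPM after hypoxia. Got1, the cytosolic aspartate aminotransferase, differed by 0.44 after cisplatin alone. Glud1, glutamate dehydrogenase, picked out after its values were seen, averaged 216 TPM after hypoxia (SD 91.8) against 103 TPM in saline (SD 3.21), a log2 difference of 0.95 (limma adjusted p = 0.0189). Of 2 histidine genes tested, Uroc1, urocanate hydratase, fell by 1.86 on the log2 scale after cisplatin alone.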
